A study of Mus musculus with 12 samples.

Results

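The 10 genes described here, Dusp1, Dusp2, Dusp4, Dusp5, Dusp6, Dusp7, Dusp8, Dusp10, Dusp14 and Dusp16, encode dual-specificity phosphatases that act on mitogen-activated protein kinases (MAPKs). They were taken by name from a list of nuclear inducible, ERK-selective and p38/JNK-selective members plus the small phosphatase Dusp14. The rule uses no measured value, but the list was drawn up with earlier results of these data known. All 10 were found among the 32498 named rows of the deposited tables, and all 10 were among the 16847 genes tested. The samples are tongue tissue of C57BL/6 mice, labelled as tumor and tumor-associated, with 6 vehicle and 6 gallic acid (GA) libraries. All mice were bought at 5 weeks of age and drank water with 100 µg/mL of the oral carcinogen 4-nitroquinoline 1-oxide (4NQO) over 16 weeks. The GA group was gavaged with this plant phenol at 100 mg/kg body weight 5 times per week, beginning 4 weeks after the start of 4NQO, and the vehicle group received the carrier alone on the same schedule. There is no group without 4NQO, so every value below describes carcinogen-exposed tongue. The comparison asks whether transcripts of these phosphatases differed between GA-treated and vehicle-treated tongue.

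MAPKs (ERK, p38 and JNK) are switched on by phosphorylation of a threonine and a neighbouring tyrosine in their activation loop, and a dual-specificity phosphatase removes both phosphates. Many of these phosphatases are themselves induced by the kinases they switch off, which makes their transcripts a delayed record of pathway activity. Dusp1, Dusp2, Dusp4 and Dusp5 are inducible nuclear enzymes, Dusp6 and Dusp7 are cytoplasmic and act mostly on ERK, Dusp8, Dusp10 and Dusp16 act mostly on p38 and JNK, and Dusp14 is a small enzyme that lacks the kinase-binding domain of the others. In stratified epithelium such as that of the tongue, ERK signalling downstream of growth factor receptors accompanies the proliferation of basal cells.

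The libraries held 18040152 to 21770340 reads in the vehicle group and 21237167 to 25192491 reads in the GA group, recovered from the lowest FPKM values, and Spearman correlations between libraries of a group lay between 0.888 and 0.971. The tissue was recognisable from its markers. The 10 oral epithelial markers, keratins among them, summed to 18931 to 43743 scaled FPKM per library in vehicle (median 25254). In GA libraries the sum was 15997 to 30056 (median 26934). Of these markers, 10 of 10 had a lower mean log2 level with GA (median log2 fold change -0.20), and none was called. Several properties of the libraries were unevenly spread over the groups or set libraries apart. No tested marker gene of any list had an unadjusted limma p below 0.05. Counts of markers are to be read beside the 49% of all tested genes that were lower with GA. Reads on Y-linked genes (3345 to 4535) were found in 5 libraries, vehicle 1, 2, 3 and 4 and GA 1, and were 0 in the other 7, and the labels give no sex. The tongue gland lipase Lipf stood at 8765 to 25476 FPKM in vehicle libraries 3 and 5 and GA library 2 and at 0.508 FPKM or less in the other 9. Of the neutrophil markers, 11 of 11 tested were lower with GA (median log2 fold change -0.74), and their summed level was 1108 to 2618 scaled FPKM in vehicle and 235 to 1832 in GA libraries, with Retnlg, Clec4d, Cd177, Ly6g and Mmp8 at 0 in at least 1 library. That sum is mostly S100a8 and S100a9, which keratinocytes also make. Of the skeletal muscle markers, 7 of 9 were higher with GA (median 0.49), with sums of 1353 to 11398 in vehicle and 1986 to 8686 in GA libraries. Of the other marker lists, fibroblast (7 of 8), macrophage and dendritic cell (7 of 10) and gland markers (7 of the 7 tested) were mostly lower, and endothelial (8 of 8) and T cell markers (6 of 9) mostly higher, with no tested gene of these 5 lists called. In bulk tissue, fewer cells of a type and less RNA per cell cannot be told apart.

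None of the 10 genes passed the limits for a call, which were an adjusted p under 0.1 together with a log2 fold change of 0.58 or more in either direction. In the limma fit across all tested genes the adjusted p was 1.00 for each of them. The share of all tested genes called was 0%, so the absence of calls is not particular to this family. Of the 10 genes, 8 had a lower and 2 a higher mean log2 level with GA, where 49% of all tested genes were lower, and the median log2 fold change was -0.13 against 0.0043 over all tested genes. At an unadjusted limma p below 0.05 there was 1 gene, Dusp1, which was lower, beside 2.16% of all tested genes in either direction and 1.04% lower with GA. By exact permutation it was again Dusp1 alone, beside 2.41% of all tested genes in either direction and 1.09% lower with GA. Dusp1 was the only gene of the 10 with a log2 fold change at or below -0.58 (4.2% of all tested genes), and the only 1 with all 6 GA libraries below the vehicle median, a pattern shown by 2.75% of all tested genes. The groups overlapped in all 10 genes, while 0.0653% of all tested genes had groups that did not overlap. With a log2 fold change of at least 0.5 in size there were 3 of the 10, Dusp1, Dusp6 and Dusp10, beside 11% of all tested genes.

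**Figure D1:**
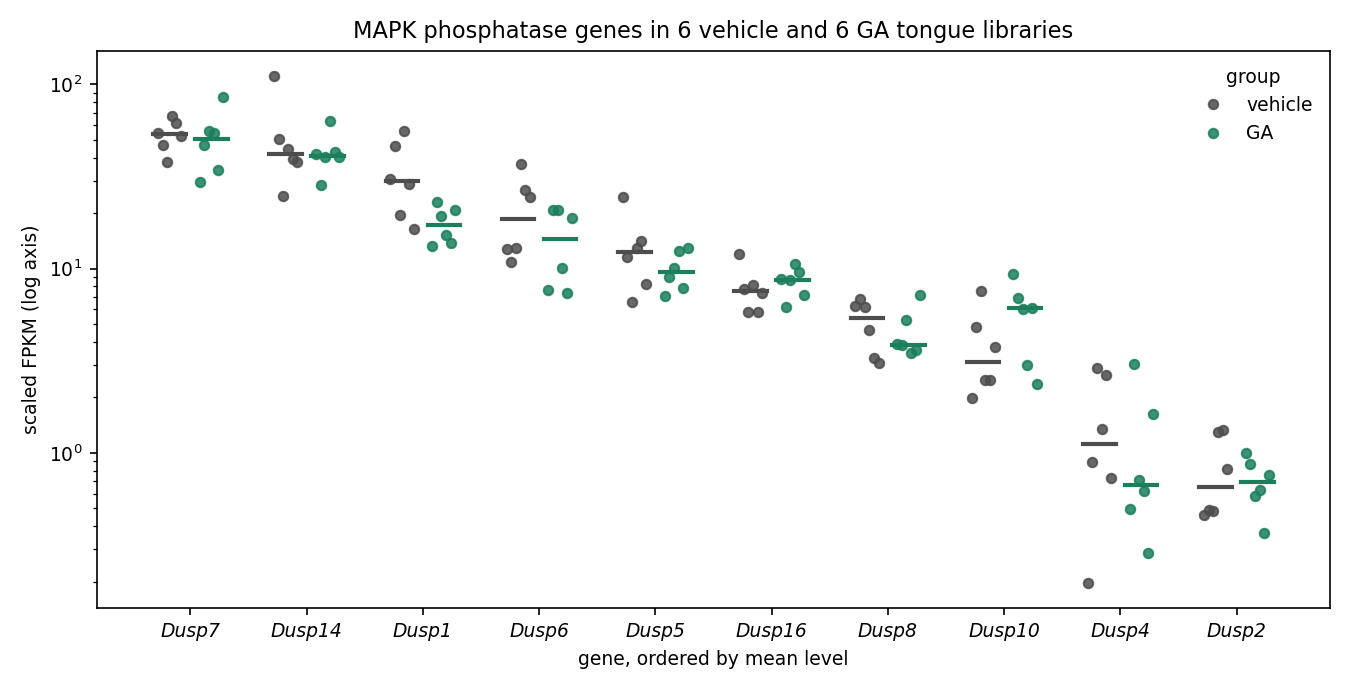
Scaled FPKM (log axis) of the 10 MAPK phosphatase genes, ordered by mean level, with 1 point per library, vehicle in grey and GA in green, and a line at the median of each group of 6. Dusp1 is the gene in which all 6 GA points (13.2 to 22.9) lie below the vehicle median of 29.7, and the groups overlap in all 10 genes.

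The family spanned a wide range of levels. On the scaled FPKM scale, which is per length and so allows genes to be compared, the mean over 12 libraries was 52.3 ± 15.2 (SD) for Dusp7, 47.0 ± 22.3 for Dusp14 and 25.2 ± 13.4 for Dusp1, and these 3 genes made up 65.9% to 77.1% of the summed level of the 10 in each library. Dusp6 (17.5 ± 8.89), Dusp5 (11.5 ± 4.84) and Dusp16 (8.16 ± 1.92) followed, then Dusp8 (4.80, from 3.06 to 7.21) and Dusp10 (4.74 ± 2.44). Dusp4 (1.29 ± 1.03) and Dusp2 (0.756 ± 0.320) were the lowest and rested on few reads, 10 to 192 and 15 to 60 per library. Of the 9 pairs of neighbours in this order, 6 were not separated beyond their spread, with a mean log2 gap below its SD over the 12 libraries. Dusp7 exceeded Dusp14 in 7 of 12 libraries, Dusp6 exceeded Dusp5 in 8, Dusp8 exceeded Dusp10 in 6 and Dusp4 exceeded Dusp2 in 7. Dusp1 exceeded Dusp6 and Dusp5 exceeded Dusp16 in 10 of 12 each, yet these gaps (0.54 and 0.42) were also below their SDs (0.69 and 0.48). Dusp14 over Dusp1, Dusp16 over Dusp8 and Dusp10 over Dusp4 had gaps above their SDs and kept their order in 10 or 11 of 12 libraries. In mean level the ERK-selective Dusp7 and Dusp6 stood above the p38/JNK-selective Dusp16, Dusp8 and Dusp10. In single libraries this did not always hold for Dusp6, which was below Dusp16 in GA libraries 1, 4 and 5 and below Dusp10 in GA library 1.

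Among the nuclear inducible members, Dusp1 (ENSMUSG00000024190.7, mm10 chr17:26505590-26562128, minus strand) is the classic immediate early phosphatase and acts on p38, JNK and ERK. Its promoter is shown, with those of Dusp5 and Dusp8 below, because they hold the cyclic AMP response and serum response elements through which immediate early genes are known to be induced. Gene positions here are spans of the GENCODE M21 annotation, and the RefSeq starts of Dusp1, Dusp5 and Dusp8 lie inside those spans. The stretch of 250 bases before the RefSeq start of Dusp1 (GRCm38.p6, chr17:26508473-26508722, minus strand, written 5′ to 3′) has in capitals a complete cyclic AMP response element (CRE, TGACGTCA), the short CRE element TGACG and the E-box CACGTG.
Dusp1: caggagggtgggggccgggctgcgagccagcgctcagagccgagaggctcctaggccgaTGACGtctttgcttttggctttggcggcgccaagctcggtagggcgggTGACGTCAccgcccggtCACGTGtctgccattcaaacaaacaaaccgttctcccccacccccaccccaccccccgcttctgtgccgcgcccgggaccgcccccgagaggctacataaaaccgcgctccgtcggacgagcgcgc
Among the 32851 RefSeq promoters of this length, 1.55% hold a complete CRE, 17.8% the short element, which every complete CRE also contains, and 6.02% the E-box, all searched on both strands.

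Dusp1 stood at 16.3, 29.7 and 56.1 scaled FPKM (lowest, median, highest) in the vehicle group and at 13.2, 17.2 and 22.9 in the GA group. The 3 lowest GA libraries (1, 4 and 5) lay below every vehicle library, and vehicle libraries 4 and 2 were the highest. The means were 32.9 ± 15.5 and 17.5 ± 4.01 (SD, n = 6 each), and the vehicle group varied more, with a coefficient of variation of 47.0% against 22.9%. The log2 fold change was -0.80 ± 0.28 (SE), a fold of 0.573, with a limma p of 0.0144 (adjusted p = 1.00) and an exact two-sided permutation p of 0.0238. The paper on these libraries reports Dusp1 as significantly lower with GA, from edgeR on counts, whereas the limma fit here did not call it. Since the paper named Dusp1 from these same libraries, its difference here is not independent evidence. With 12 libraries the exact test can give no p below 0.00216. The difference moved with Lipf, at -0.04 in the 3 libraries with high Lipf (2 vehicle, 1 GA) and -1.06 in the other 9. It also moved with the Y-linked reads. Where these were absent, in 7 libraries, it was -0.26 (2 vehicle libraries at 16.3 and 28.8, 5 GA libraries at 13.8 to 22.9), and among the 5 with them it was -1.41 (4 vehicle at 19.4 to 56.1, 1 GA at 13.2). With a covariate for Y-linked reads (sex term) it was -0.68 ± 0.33, and the unadjusted limma p was then 0.0675 (adjusted p = 0.996), so that Dusp1 was no longer below 0.05.

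Dusp2 (chr2:127336159-127338376, plus strand, mm10 as in all gene positions here), a nuclear phosphatase of activated leukocytes, stood at 0.461, 0.653 and 1.33 scaled FPKM in vehicle and 0.367, 0.692 and 1.00 in GA libraries. The highest values were those of vehicle libraries 5 and 4, which were also the 2 highest in the mean log2 level of the neutrophil markers. The log2 fold change was -0.12 ± 0.31 (exact permutation p = 0.690), and 3 GA libraries were on each side of the vehicle median. Dusp4 (chr8:34807297-34819894, plus strand), an inducible nuclear phosphatase of ERK and JNK, had the widest range of the 10 genes, 15.4-fold between GA library 2 (3.04) and vehicle library 1 (0.198). Its groups covered nearly the same range, with 0.198, 1.12 and 2.87 in vehicle and 0.285, 0.665 and 3.04 in GA, and the log2 fold change was -0.33 ± 0.61 (exact permutation p = 0.619). The 3 highest Dusp4 values (2.64, 2.87 and 3.04) were those of the 3 libraries with high Lipf, and the other 9 lay between 0.198 and 1.63. Without those 3 libraries the Dusp4 difference was -0.05.

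Dusp5 (ENSMUSG00000034765.6, mm10 chr19:53529109-53542431, plus strand) is an ERK-specific nuclear phosphatase and a known target of serum response factor, which binds the CArG box. Its promoter (RefSeq, GRCm38.p6, chr19:53528895-53529144, plus strand) has in capitals a pair of CArG boxes end to end, from 82 to 63 bases before the start, and a short CRE element on the other strand.
Dusp5: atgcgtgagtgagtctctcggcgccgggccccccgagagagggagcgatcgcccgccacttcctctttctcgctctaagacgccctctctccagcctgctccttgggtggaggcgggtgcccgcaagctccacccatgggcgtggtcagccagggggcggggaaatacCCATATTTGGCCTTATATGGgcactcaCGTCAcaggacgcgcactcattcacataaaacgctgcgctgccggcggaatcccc
A CArG box was found in 1.47% of all promoters of this length and in no other of the 9 promoters of the family that matched RefSeq. Dusp5 stood at 6.59, 12.3 and 24.5 scaled FPKM in vehicle and 7.08, 9.52 and 13.0 in GA libraries, with vehicle library 1 the highest and vehicle library 3 the lowest of all 12. The log2 fold change was -0.30 ± 0.28 (exact permutation p = 0.361). A gene on the opposite strand, AC137853.2, overlaps 22.1% of the Dusp5 exon bases, and since strand handling in the counting is not given in the sources used here, reads of the pair cannot be told apart.

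The ERK-selective cytoplasmic members did not separate the groups. Dusp6 (chr10:99263231-99267489), an ERK phosphatase whose transcript is a standard readout of ERK activity, stood at 10.8, 18.6 and 36.8 scaled FPKM in vehicle and 7.34, 14.4 and 20.8 in GA libraries. GA libraries 1, 4 and 5 lay below every vehicle library, the other 3 lay among them, and vehicle libraries 4, 5 and 6 were the 3 highest. The means were 20.7 ± 10.3 and 14.2 ± 6.53 (SD, n = 6 each), with a log2 fold change of -0.54 ± 0.37 (limma p = 0.174, exact permutation p = 0.210). With the sex term the difference was -0.91 ± 0.39, with an unadjusted limma p below 0.05 (adjusted p = 0.996), and where Y-linked reads were absent it was -0.83. There the 2 vehicle libraries (24.3 and 26.7) exceeded all 5 GA libraries (7.34 to 20.8). With the mean log2 level of the neutrophil markers as a covariate it was -0.26 ± 0.32. Dusp7 (chr9:106368632-106375724), the other ERK-selective member, had the highest mean level of the 10, at 37.8, 53.5 and 67.3 in vehicle and 29.5, 50.7 and 85.5 in GA libraries. GA library 6 was the highest and GA libraries 1 and 5 the lowest of all 12, so the GA group enclosed the vehicle group. The log2 fold change was -0.13 ± 0.23 (exact permutation p = 0.628).

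Of the p38/JNK-selective members, Dusp8 (ENSMUSG00000037887.11, mm10 chr7:142079490-142095843, minus strand) is a phosphatase known mainly from nervous tissue and heart. Its promoter (RefSeq, GRCm38.p6, chr7:142095285-142095534, minus strand) holds a pair of complete CREs, in capitals.
Dusp8: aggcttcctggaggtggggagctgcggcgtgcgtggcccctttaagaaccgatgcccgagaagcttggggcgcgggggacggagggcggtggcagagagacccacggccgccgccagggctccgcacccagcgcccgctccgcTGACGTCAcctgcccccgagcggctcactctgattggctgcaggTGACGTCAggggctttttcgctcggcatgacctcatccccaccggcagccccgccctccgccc
Dusp1 and Dusp8 were the 2 of 9 family promoters with a complete CRE. The levels of the 2 genes over the 12 libraries had a Pearson r of 0.42 and a Spearman rho of 0.43 (permutation p = 0.177 and 0.169, adjusted over 45 pairs 0.386 and 0.399, r 0.38 in vehicle and 0.55 in GA, 0.36 without the 2 libraries farthest from the median of Dusp1), which did not pass the test. Dusp8 stood at 3.06, 5.42 and 6.88 scaled FPKM in vehicle and 3.49, 3.86 and 7.21 in GA libraries, and 5 of 6 GA libraries lay below the vehicle median. The log2 fold change was -0.13 ± 0.24 (exact permutation p = 0.608). The vehicle libraries were 4 with Y-linked reads at 4.66 to 6.88 and 2 without at 3.06 and 3.26. Where Y-linked reads were absent the direction was the opposite, at 0.49 with 5 GA libraries at 3.49 to 7.21.

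Dusp10 (chr1:184013302-184075636), a p38 and JNK phosphatase found in nucleus and cytoplasm, had the largest difference upward. It stood at 1.97, 3.13 and 7.60 scaled FPKM in vehicle and 2.37, 6.08 and 9.37 in GA libraries. GA library 1 was the highest of all 12 and 4 of 6 GA libraries lay above the vehicle median, but GA libraries 4 and 6 were at 3.01 and 2.37 and vehicle library 3 was at 7.60. The means were 3.85 ± 2.11 and 5.64 ± 2.59 (SD, n = 6 each), and the log2 fold change was 0.54 ± 0.38 (limma p = 0.177, exact permutation p = 0.227). Its level followed that of the muscle markers, as given below, and with their mean log2 level as a covariate the difference was 0.42 ± 0.20 (limma adjusted p = 0.996). Dusp16 (chr6:134715468-134792625), which shuttles between nucleus and cytoplasm and prefers JNK, had the narrowest range of the 10, 2.07-fold. It stood at 5.80, 7.58 and 12.03 in vehicle and 6.15, 8.68 and 10.6 in GA libraries, with a log2 fold change of 0.14 ± 0.18 (exact permutation p = 0.498). Its 3 lowest values (5.80, 5.81 and 6.15) were those of the 3 libraries with high Lipf, the reverse of Dusp4.

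Dusp14 (chr11:84048041-84069261), the small phosphatase without a kinase-binding domain, stood at 24.7, 41.9 and 110.9 scaled FPKM in vehicle and 28.4, 41.0 and 62.9 in GA libraries. The medians were nearly equal, and vehicle library 1, at 110.9, was more than 2 times the next vehicle library (50.3). The log2 fold change was -0.13 ± 0.30 (exact permutation p = 0.714), and without vehicle library 1 it was 0.12. Vehicle library 1 was also the highest of all 12 in Dusp5 and Dusp16 and the lowest in Dusp4 and Dusp10, and it had the highest sum of oral epithelial markers (43743 scaled FPKM) and the lowest sum of muscle (1353) and endothelial markers (14.5).

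**Figure D2:**
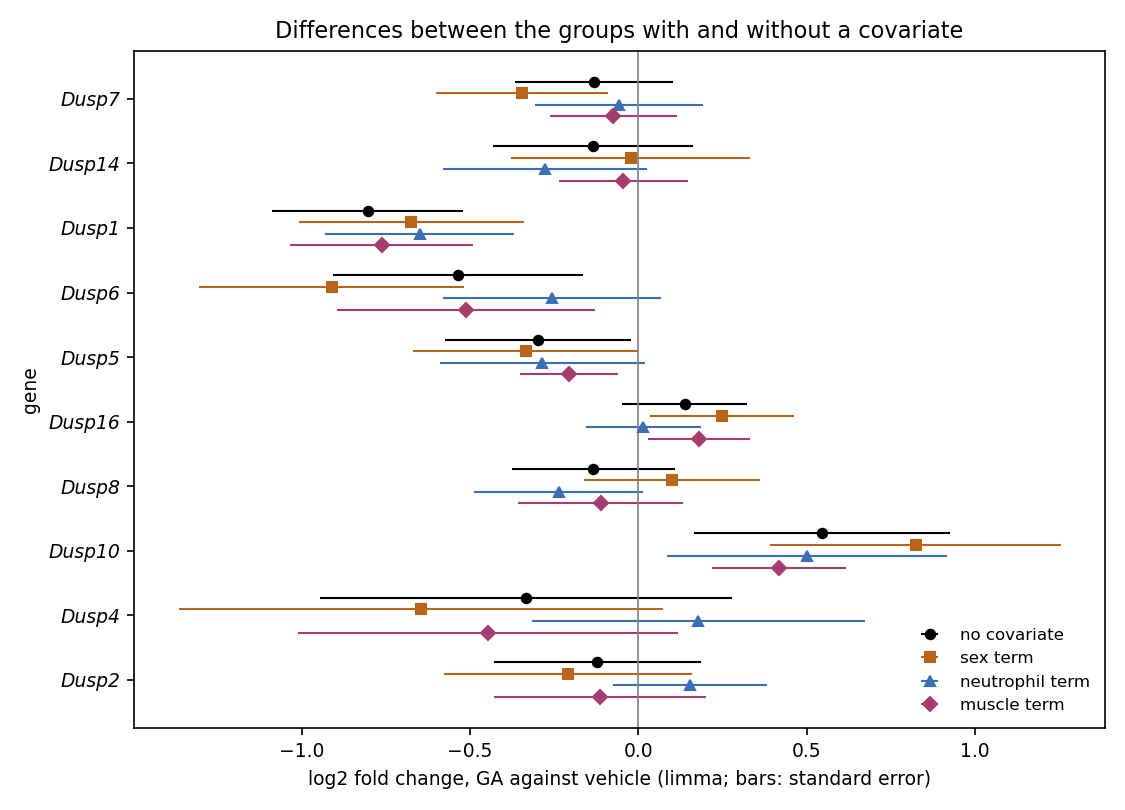
Log2 fold change of GA against vehicle for the 10 genes (limma, bars are standard errors) without a covariate and with a sex term, a neutrophil term or a muscle term. Dusp1 lies between -0.80 and -0.65 in the 4 fits, Dusp6 between -0.91 and -0.26, Dusp10 between 0.42 and 0.82, and Dusp2, Dusp4 and Dusp8 cross 0.

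The covariate fits moved the members in different ways. With the neutrophil term, Dusp2 and Dusp4 went from -0.12 to 0.15 and from -0.33 to 0.18, while Dusp1 was at -0.65 ± 0.28 (limma adjusted p = 0.999). With the muscle term Dusp1 was at -0.76 ± 0.27 and the standard error of Dusp5 was 0.15, against 0.28 without it, around a difference of -0.21. With the sex term Dusp10 went from 0.54 to 0.82 ± 0.43 (limma adjusted p = 0.996). No adjusted p of a member was below 0.816 in any setting tried. The part of sex, neutrophils and muscle in these differences was not tested.

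The 10 genes did not vary as 1 group over the libraries. Of the 45 pairs, 26 had a positive Pearson r of log2 level over the 12 libraries, and 6 pairs had an adjusted permutation p below 0.05 for r, of which 4 were negative, each with Dusp4 or Dusp10 as a partner. The libraries share their groups and their tissue makeup, so r within each group, over 6 libraries, stands beside the pooled value. Dusp4 and Dusp16 had an r of -0.92 and a rho of -0.93 (permutation p = 3e-05 and 1e-05, the latter the smallest that the resamples can give, adjusted 0.00135 and 0.00045), with -0.94 in vehicle and -0.89 in GA, -0.88 without the 2 libraries farthest from the median of Dusp4 and -0.80 without the 3 high-Lipf libraries. Dusp5 and Dusp10 had an r of -0.86 and a rho of -0.91 (permutation p = 0.00024 and 0.00016, adjusted 0.0036 for each), with -0.86 in vehicle, -0.94 in GA and -0.85 without the 2 farthest libraries. Dusp7 and Dusp10 likewise ran against each other (r = -0.82, rho = -0.82, permutation p = 0.00077 and 0.00188, adjusted 0.00866 and 0.0211, -0.88 in vehicle, -0.85 in GA, -0.74 without the 2 farthest).

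Among the positive pairs, Dusp16 and Dusp14 had an r of 0.85 and a rho of 0.83 (permutation p = 0.00024 and 0.0017, adjusted 0.0036 and 0.0211), with 0.93 in vehicle, 0.90 in GA and 0.72 without the 2 farthest libraries. Dusp5 and Dusp14 had an r of 0.80 but a rho of 0.52 (permutation p = 0.00358 and 0.0901, adjusted 0.0268 and 0.290), with 0.92 in vehicle but 0.36 in GA, and r was 0.34 without vehicle libraries 1 and 3, on which the relation rests. The ERK-selective pair Dusp6 and Dusp7 had an r of 0.71 and a rho of 0.62 (permutation p = 0.00903 and 0.0373, adjusted 0.0580 and 0.168), with 0.78 in vehicle, 0.73 in GA and 0.60 without the 2 farthest. No pair among the nuclear inducible Dusp1, Dusp2, Dusp4 and Dusp5 had an adjusted p below 0.05, and the pair with the highest r was Dusp1 and Dusp5 (r 0.55, rho 0.67, permutation p 0.0661 and 0.0204, adjusted 0.249 and 0.131, n = 12, r 0.49 in vehicle and 0.48 in GA, r 0.72 without the 2 farthest libraries).

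**Figure D3:**
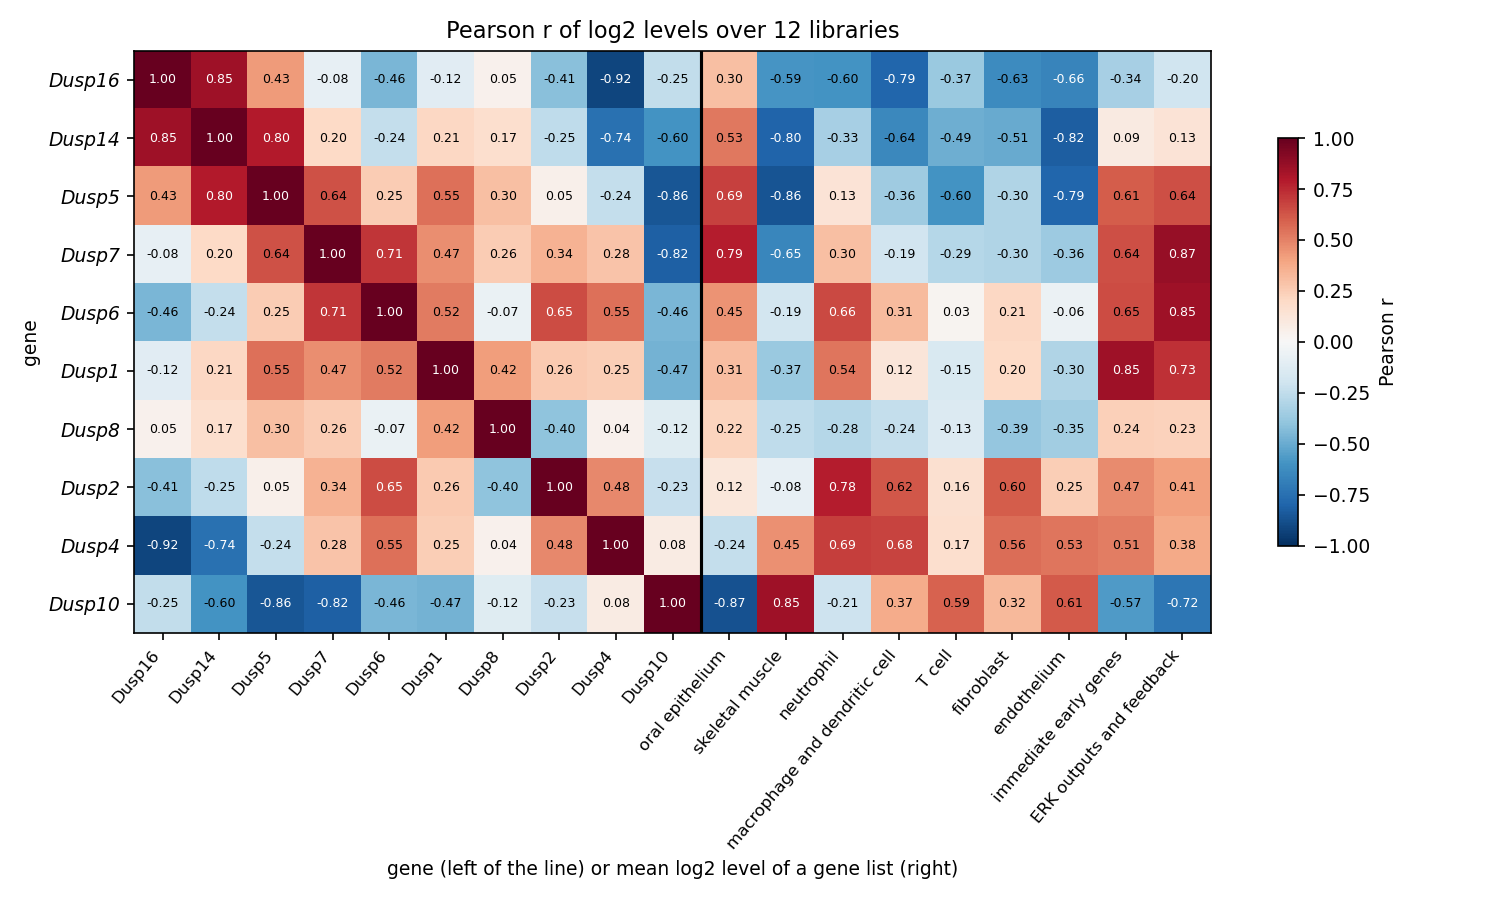
Pearson r over 12 libraries between log2 levels of the 10 genes (left of the line) and between each gene and the mean log2 level of a gene list (right of the line), from -1 in blue to 1 in red. Dusp10 runs with skeletal muscle markers (0.85) and against oral epithelium (-0.87), while Dusp7 and Dusp6 run with ERK outputs and feedback inhibitors (0.87 and 0.85) and Dusp1 with immediate early genes (0.85).

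The members were also set beside the mean log2 level of 14 gene lists other than glands, which gave 140 relations, of which 13 had an adjusted permutation p below 0.05 for r. Both ERK-selective genes followed the list of ERK outputs and feedback inhibitors (Sprouty and Spred genes, Etv4, Etv5, Egr genes and others). For Dusp7 r was 0.87 and rho 0.85 (permutation p = 0.00028 and 0.00094, adjusted 0.0102 and 0.0188), with 0.97 in vehicle, 0.87 in GA and 0.84 without the 2 farthest libraries. For Dusp6 r was 0.85 and rho 0.78 (permutation p = 0.00046 and 0.00419, adjusted 0.0102 and 0.0419), with 0.70 in vehicle, 0.93 in GA and 0.75 without the 2 farthest. Dusp7 also ran against the p38 and JNK cascade kinases (r = -0.77, rho = -0.76, permutation p = 0.0031 and 0.00631, adjusted 0.0334 and 0.0474, -0.79 in vehicle, -0.84 in GA, -0.80 without the 2 farthest). Dusp1 followed the immediate early genes, the Fos, Jun and Klf families among them, with an r of 0.85 and a rho of 0.87 (permutation p = 0.00037 and 0.00063, adjusted 0.0102 and 0.0147). That relation held in vehicle (0.85) and in GA (0.92), without the 2 farthest libraries (0.88) and without the high-Lipf libraries (0.93). Dusp1 also had an r of 0.73 with the ERK outputs (0.66 in vehicle, 0.95 in GA), and the difference between its relations with the lists was not tested. The relation with the ERK outputs was not particular to the ERK-selective genes. Dusp5 had an r of 0.64 and a rho of 0.80 (permutation p = 0.0230 and 0.00321, adjusted 0.118 and 0.0419, 0.64 in vehicle, 0.70 in GA, 0.73 without the 2 farthest). Dusp10 ran against them (r = -0.72, rho = -0.77, permutation p = 0.00884 and 0.0053, adjusted 0.0688 and 0.0474, -0.86 in vehicle, -0.55 in GA, -0.61 without the 2 farthest).

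Other members ran with or against markers of single cell types. Dusp10 ran with the skeletal muscle markers (r = 0.85, rho = 0.92, permutation p = 0.00016 and 2e-05, adjusted 0.0102 and 0.0028, 0.94 in vehicle, 0.84 in GA, 0.85 without the 2 farthest) and ran against the oral epithelial markers (r = -0.87, rho = -0.90, permutation p = 0.0005 and 0.00018, adjusted 0.0102 and 0.00665, -0.85 in vehicle, -0.86 in GA, -0.82 without the 2 farthest). Dusp5 ran against the muscle markers (r = -0.86, rho = -0.90, permutation p = 0.00024 and 0.00012, adjusted 0.0102 and 0.00665, -0.94 in vehicle, -0.74 in GA, -0.73 without the 2 farthest), and Dusp7 ran with the epithelial markers (r = 0.79, rho = 0.78, permutation p = 0.0022 and 0.00405, adjusted 0.0257 and 0.0419, 0.73 in vehicle, 0.84 in GA, 0.66 without the 2 farthest). Dusp2 and the neutrophil markers had an r of 0.78 and a rho of 0.73 (permutation p = 0.0019 and 0.00966, adjusted 0.0257 and 0.0644), with 0.88 in vehicle and 0.59 in GA, and r was 0.48 without vehicle libraries 4 and 5, on which the relation rests. In all 19 pairs and relations with an adjusted p below 0.05, r had the same sign in the 5 libraries with Y-linked reads (0.63 to 1.00 in size), in the 7 without (0.35 to 0.95) and in the 9 without high Lipf (0.59 to 0.94). All 19 were picked for their r over these same 12 libraries, so the shared sign is a description and not a separate test. Dusp1 with the immediate early genes had an r of 0.99 and 0.94 with and without Y-linked reads. The smallest, 0.35, was that of Dusp5 and Dusp14 in the libraries without them. The share of these relations that comes from the amount of each cell type was not tested.

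**Figure D4:**
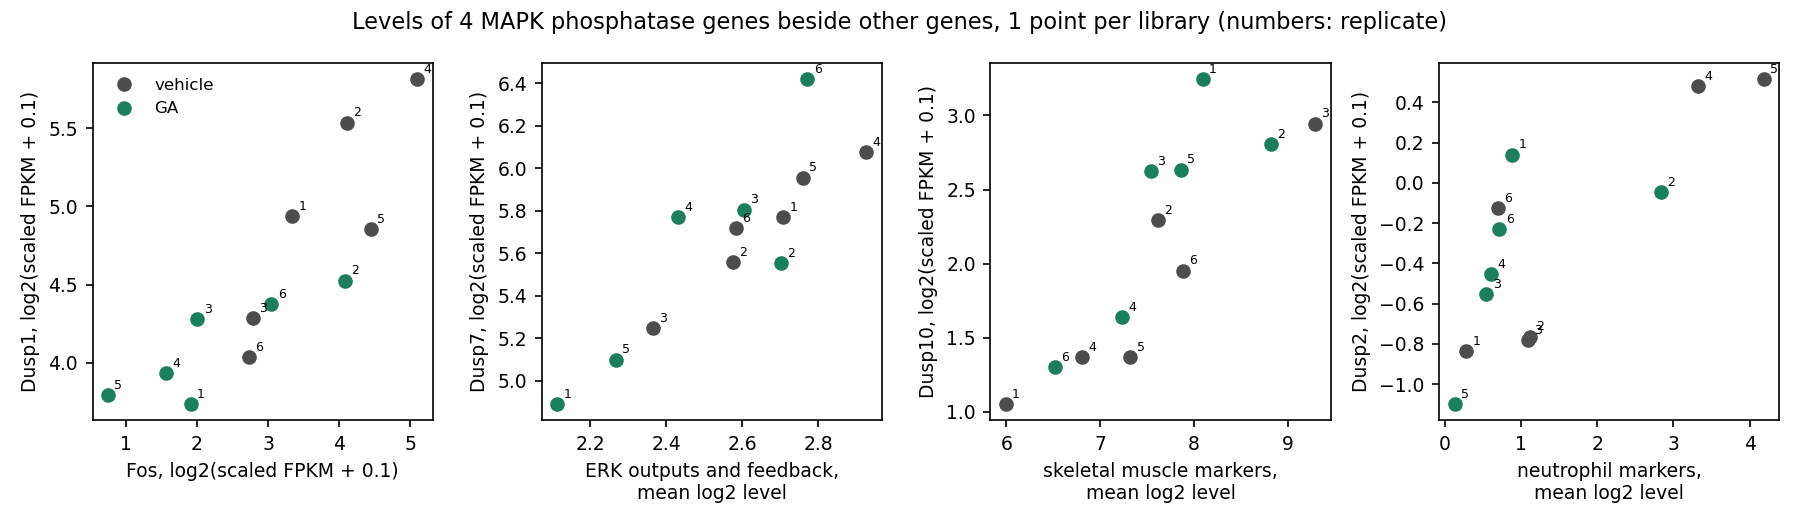
Log2(scaled FPKM + 0.1) of Dusp1, Dusp7, Dusp10 and Dusp2 in each library (numbered by replicate, vehicle grey and GA green) against Fos, the mean log2 level of ERK outputs, of skeletal muscle markers and of neutrophil markers. Dusp1 climbs with Fos over the 12 libraries (r = 0.87), and the Dusp2 panel turns on vehicle libraries 4 and 5.

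Among 12153 genes that averaged 1 FPKM or more, the 3 most like Dusp1 by Pearson r of log2 level over the 12 libraries were Fos (0.87), the AP-1 subunit that Dusp1 is known to be induced with, Ube2srt (0.86) and Csrnp1 (0.84). Fos stood at 6.51, 13.6 and 34.2 scaled FPKM in vehicle and 1.58, 3.79 and 16.9 in GA libraries, with a log2 fold change of -1.53 ± 0.56 (limma p = 0.0171, adjusted p = 1.00, exact permutation p = 0.0368), and 5 of 6 GA libraries lay below the vehicle median. The paper on these libraries also reports Fos as significantly lower with GA, from edgeR on counts. The limma fit here did not call Fos. The 3 most like Dusp6 were Bnc1 (0.95), a transcription factor of basal keratinocytes, Smim3 (0.93) and Wdr1 (0.93), an actin regulator. The 3 most like Dusp10 were Sirt3 (0.97), the mitochondrial deacetylase, 1110002E22Rik (0.97) and Crat (0.96), the carnitine acetyltransferase of mitochondria. These are the highest of many correlations and are given as a description. After centring on the group means r was 0.79 for Dusp1 with Fos, 0.94 for Dusp6 with Bnc1 and 0.96 for Dusp10 with Sirt3.

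The kinases that these phosphatases act on, and the kinases above them, showed no called gene. The p38 and JNK list also holds Mapkapk2, Mapkapk3 and Mapkapk5, kinases below p38, and these were not called either. Counts are to be read beside the 49% of all tested genes that were lower and the 2.16% with an unadjusted limma p below 0.05. Of 10 kinases of the ERK cascades 6 were lower and 4 higher with GA (median -0.03), and none had an unadjusted limma p below 0.05, with the smallest p for Braf (-0.25 ± 0.14, exact permutation p = 0.0844) and Araf (0.12 ± 0.13, exact permutation p = 0.383), both MAP kinase kinase kinases. Of 17 kinases of the p38 and JNK cascades 8 were lower and 9 higher (median 0.0025), with Map2k6 at -0.48 ± 0.29 (exact permutation p = 0.149) and Map2k3 at 0.22 ± 0.14 (exact permutation p = 0.147), the pair of kinases that activate p38. The median differences of both kinase lists were thus near that of all tested genes (0.0043).

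Most of the genes downstream had a lower mean with GA, and none of them was called. Of 17 ERK outputs and feedback inhibitors 14 were lower with GA (median -0.18), where 49% of all tested genes were lower, and 1, the receptor Epha2, had an unadjusted limma p below 0.05, as did 1.04% of all tested genes in that direction. Epha2 stood at 9.40, 17.4 and 19.6 scaled FPKM in vehicle and 9.19, 12.4 and 13.8 in GA libraries, with all 6 GA libraries below the vehicle median (2.75% of all tested genes) and a log2 fold change of -0.41 ± 0.17 (limma p = 0.0330, adjusted p = 1.00, exact permutation p = 0.0541). Of 18 immediate early genes 15 were lower (median -0.22, again beside 49%), and Fos was the 1 with an unadjusted p below 0.05. Egr1, an ERK-induced transcription factor, differed by -0.10 ± 0.39; whether it differed from Fos was not tested. All 10 oral epithelial markers had a lower mean log2 level too (median -0.20), beside these lists. The median of their summed level was yet higher in GA than in vehicle libraries (26934 against 25254 scaled FPKM).

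Of the other dual-specificity phosphatases, 13 were tested, 8 higher and 5 lower (median 0.05). Dusp18, a mitochondria-associated phosphatase, was the 1 with an unadjusted limma p below 0.05, which 1.12% of all tested genes had in the upward direction. It stood at 1.62, 2.71 and 4.37 scaled FPKM in vehicle and 2.82, 4.42 and 7.02 in GA libraries, with overlapping groups and a log2 fold change of 0.59 ± 0.25 (limma p = 0.0371, adjusted p = 1.00, exact permutation p = 0.0519). Of 8 tyrosine and serine/threonine phosphatases that act on MAPKs 4 were lower and 4 higher (median 0.0003), with Ppm1b at 0.23 ± 0.14 and Ppp2r1a, the scaffold subunit of protein phosphatase 2A, at -0.05 ± 0.08. Dusp1 is also a glucocorticoid-induced gene. Of 6 other genes induced by glucocorticoids 2 were lower and 4 higher (median 0.17), with Tsc22d3, the leucine zipper protein known as GILZ, at 0.30 ± 0.25 (exact permutation p = 0.294) and the kinase Sgk1 at -0.25 ± 0.22 (exact permutation p = 0.303). None of these 6 had an unadjusted p below 0.05.

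The promoters of 9 members could be read from RefSeq. Besides the elements shown above, Dusp2 held an E-box and an EGR element (GCGGGGGCG, in 2.57% of all promoters) and Dusp16 a short CRE. Dusp14 held CCGGAA, the 1 form of the ETS core that was searched (12% of all promoters). Dusp6, Dusp7 and Dusp10 held none of the elements in the letters searched, and other forms of these elements were not searched. The AP-1 element TGANTCA (6.75% of all promoters), the NF-kB element (7.25%) and the full glucocorticoid response element (0.00913%) were found in none of the 9. These windows cover only the bases next to the start, and a match describes letters and not binding. The members with a CRE, Dusp1 and Dusp8, differed by -0.80 and -0.13 between the groups.

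**Figure D5:**
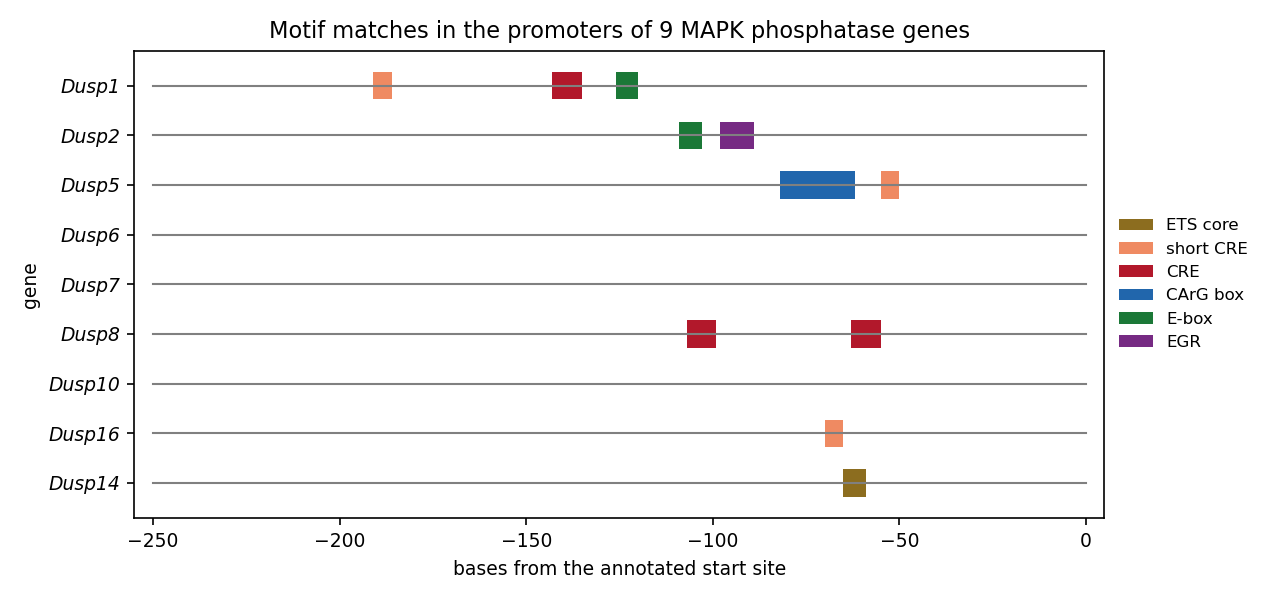
Positions of motif matches in the 250 bases before the RefSeq start site (0) of 9 MAPK phosphatase genes, with a coloured block for each match and a short CRE drawn only outside a complete CRE. Complete CREs are seen in Dusp1 (1) and Dusp8 (2), the adjacent CArG boxes in Dusp5, and no block in Dusp6, Dusp7 and Dusp10.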

How the data were processed

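Tongue RNA in 12 libraries, 6 vehicle and 6 GA, was measured by bulk RNA-seq. The authors used HISAT2 with the mm10 genome and featureCounts on uniquely mapped reads, and deposited FPKM, reads scaled for gene length and library total. Groups and replicate numbers were taken from the titles. The labels do not say whether each library is 1 animal, so p-values measure the spread between these libraries.

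Rows without a gene name (22965 of 55463) were left out. The deposited FPKM divides by a gene length that is shortened by 17.0 to 24.2 bases, depending on the library total. With this and GENCODE M21 exon lengths, 97.8% to 98.4% of values worth 1 to 8 reads lay within 0.02 of a whole read, which gave the totals. FPKM was rescaled by trimmed log ratios (30% and 5% trimmed, factors 0.914 to 1.08). Genes averaging 0.1 FPKM or more were tested with limma 3.58.1 (R 4.3.3, eBayes with a trend) on log2(scaled FPKM + 0.1), which understates the change of low genes, with Benjamini-Hochberg adjustment over all of them. The study fitted counts with edgeR, which was not run here. The deposited values are FPKM, so limma on log2 levels was taken as the main test. Limma-voom on the recovered reads was run beside it. Exact two-sided permutation tests used all 924 assignments of the libraries, and correlations 100000 resamples. Promoters came from RefSeq (GRCm38.p6). The fit was tested on simulated data with independent noise for each gene and changes larger than those of the members. That run does not measure how the fit handles the tissue makeup that these libraries share.

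The members, lists, covariates and tests were chosen with earlier results of these data known. Named genes are the members, in each list those with an unadjusted p below 0.05 or the smallest p in each direction, and the 3 genes most like Dusp1, Dusp6 and Dusp10. Egr1 and the marker genes named were chosen after their values were seen. Dusp13, Dusp27 and Trac matched no row, and Cyr61 was matched as Ccn1.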

Additional observations from a re-analysis of the deposited data

Results flagged for a closer look

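Among 58 groups of 6 values, those of the members and of the other genes chosen by the naming rule (Egr1 was not included), 4 had a library far from the rest, with a gap to the nearest library over the range of the group above Dixon's 95% critical value. Chance alone flags about 1 in 20 groups. Dusp14 had such a value in vehicle library 1, at 110.9 scaled FPKM against 50.3 in the next library (ratio 0.703). Map2k3 was also highest in vehicle library 1, at 76.2 against 53.9 (ratio 0.643). Epha2 was lowest in vehicle library 3, at 9.40 against 15.8 (ratio 0.626), one of the 3 libraries with high Lipf. Araf was lowest in GA library 6, at 7.64 against 9.68 (ratio 0.654).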

How the results depend on the processing

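Pseudocounts of 1 and 0.01, no filter or a filter at 1 FPKM (which removes Dusp2), no scaling, upper-quartile scaling, no trend, the muscle term, leaving out the high-Lipf libraries and limma-voom on the recovered reads changed no direction of a member. Dusp1 was lower in all 27 settings and had an unadjusted limma p below 0.05 in 25, the exceptions being the sex term (-0.68) and the libraries without Y-linked reads only (-0.26), where 0 members had such a p. With the sex term Dusp1 had an unadjusted limma p of 0.0675 (adjusted p = 0.996), and the 1 member below 0.05 was Dusp6. Leaving out 1 library gave -0.98 to -0.62 for Dusp1, -0.69 to -0.34 for Dusp6 (without vehicle library 2 and 4) and 0.37 to 0.77 for Dusp10 (without GA library 1 and vehicle library 3). Smaller differences kept their direction but moved more, from -0.74 to -0.07 for Dusp4 and from -0.09 to -0.47 for Dusp5 (each without vehicle library 1 and 3), from -0.27 to -0.03 for Dusp8 (without GA library 6 and vehicle library 2) and from 0.06 to 0.27 for Dusp16 (without vehicle library 3 and 1).

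Directions turned in small differences. With the neutrophil term Dusp2 was at 0.15 and Dusp4 at 0.18, so that 6 members were lower. Dusp8 was at 0.10 with the sex term and at 0.49 in libraries without Y-linked reads only, where Dusp14 was at 0.11 and 6 members were lower. Leaving out 1 library gave -0.24 to 0.031 for Dusp2 (above 0 without vehicle library 4 or 5 or GA library 5), -0.30 to 0.0088 for Dusp7 (GA library 1) and -0.31 to 0.12 for Dusp14 (vehicle library 1). The causes were not tested. When 1 library was left out, 7 or 8 members were lower. Over all tested genes, 0 to 1 were called when 1 library was left out. The 1 call, without vehicle library 4, was Gm25290, a gene with 0 to 5 reads per library (limma adjusted p = 5.18e-05).

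The levels showed no pairing by replicate number, since deviations of same-numbered libraries had r between -0.37 and 0.08 and 0 of 6 pairs exceeded 0.1. That check cannot tell whether same-numbered libraries shared a batch. With the replicate block Dusp1 was at -0.80, 1 member had an unadjusted p below 0.05, 0 genes were called, and 244 of all tested genes had an unadjusted limma p below 0.05 against 364 without it (329 with limma-voom, 0 called). Dusp2 and Dusp4 are limited by depth, at 10 to 192 reads per library.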

Other observations

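The summed level of the 10 genes was 124 to 254 scaled FPKM in vehicle (median 187) and 123 to 197 in GA libraries (median 158). Within this sum, Dusp1 took 10.5% to 24.8% in vehicle and 8.76% to 15.4% in GA libraries, Dusp7 took 21.4% to 33.8% and 24.1% to 43.3%, and Dusp14 took 18.9% to 43.6% and 19.1% to 36.3%. Dusp5 took 5.28% to 9.64% in vehicle and 5.78% to 7.17% in GA libraries.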
